A study of Homo sapiens with 60 samples.

Results

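Keratins are the intermediate filament proteins of epithelial cells, and 7 keratin genes were followed here in A549 cells treated with herbal extracts: KRT8, KRT18, KRT7, KRT19, KRT4, KRT80 and KRT81. They are 7 of the 55 annotated keratin genes among the 60675 genes of the deposited table, and all 7 passed the filter on low counts. The genes were chosen on their CPM (counts scaled to the size of each library) across the very libraries described here, so their levels and changes are given as a description with standard deviations and standard errors. Where one of the 7 is said to be past the threshold of the fit, that too describes the chosen values and is no independent test. The choice used no threshold on any value. Of the other 48 keratin genes, 8 passed the same filter, and those were tested.

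Keratin filaments are built from pairs of a type I and a type II keratin, and a chain that lacks a partner is degraded. KRT8 (type II) and KRT18 (type I) form the basic pair of simple, one-layered epithelia. KRT7 (type II) and KRT19 (type I) accompany them in ducts, glands and airways, and KRT7 is a common marker of lung adenocarcinoma. KRT4 is a type II keratin of moist stratified linings such as the oesophagus, KRT80 is a type II keratin found in many epithelia, and KRT81 is a type II keratin first known from hair. Desmosomes and hemidesmosomes tie these filaments to the cell surface.

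A549 is a human lung adenocarcinoma cell line. The cells were exposed for 24 h to vehicle (0.1% DMSO by the sample labels, while the text on the series' design gives 2%) or to an ethanol extract of 4 single herbs (Polygalae Radix, Aucklandiae Radix, Menthae Herba, Saposhnikoviae Radix) or of 4 mixed formulas (Saengmaek-san, Guibi-tang, Soyo-san, Okbyeongpung-san), and their RNA was sequenced in bulk. The high, medium and low doses were 380, 76 and 15.2 ug/mL for Polygalae Radix, 370, 74 and 14.8 ug/mL for Aucklandiae Radix, and 500, 100 and 20 ug/mL for each of the others. The design text sets the dose of an extract at its IC20 where that lay under 500 ug/mL, and states that samples with little RNA were dropped. There were 3 libraries of vehicle and of each dose of Guibi-tang, Saengmaek-san, Menthae Herba and Saposhnikoviae Radix, 2 of each dose of Polygalae Radix, Aucklandiae Radix and Soyo-san, and 1 of each dose of Okbyeongpung-san, 60 in all. The labels do not say whether replicates came from separate cultures, so every standard error and p-value measures the spread between these libraries, which may be technical.

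Most of the 7 genes lie together on chromosome 12 (GRCh38, GENCODE 29 gene bounds): KRT80 at chr12:52168996-52192000, KRT7 at chr12:52232520-52252186, KRT81 at chr12:52285913-52291534, KRT4 at chr12:52806549-52814551, KRT8 at chr12:52897187-52949954 and KRT18 at chr12:52948871-52952901. KRT19 lies at chr17:41523617-41528308. KRT8 and KRT18 are transcribed from opposite strands and share 525 exon bases, and KRT7 shares 282 exon bases with its antisense gene KRT7-AS. The sources used here do not give a strand setting for the counting, so reads from the overlapping stretches cannot be assigned to one gene with certainty.

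KRT81 has a near copy, KRT86, and this bears on every value of both. Their coding sequences matched at 93.6% of 1454 aligned bases, with 1 run of 605 bases without a difference, and 29.7% of the 100-base windows in KRT81 transcripts occur in another gene as well, nearly all of them in KRT86. The longer identical runs cannot place a read. RSEM, the estimator named in the submitters' processing notes, divides such reads between the genes by estimation, so the split of KRT81 and KRT86 is uncertain.

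Library totals ran from 17113963 to 33363661 expected counts (median 26380155), and no pair of libraries held identical values. The libraries fell into 2 classes by a gene outside the keratins, ENSG00000282955, which was at most 3.45 CPM in 38 libraries (class 1) and at least 19.4 CPM in 22 (class 2), and 8839 of 18396 genes differed between the classes in a fit with class as a term. Vehicle, Soyo-san and Okbyeongpung-san libraries were all class 2, Aucklandiae Radix and Menthae Herba libraries were all class 1, and 9 groups held both. In class 2, KRT8 was higher by 0.22 (SE 0.03) and KRT18 by 0.21 (SE 0.03) on the log2 scale, KRT7 by 0.19 (SE 0.04), KRT80 and KRT4 by 0.12 each, and KRT19 and KRT81 by 0.06 and 0.04. The library names also place vehicle in a set of its own and the extracts in 4 further sets of a pair each, so a comparison with vehicle is also one between sets, and treatment and set cannot be told apart. High and low doses of an extract share a set. Epithelial CDH1 was measured at 11.9 to 36.0 CPM, while EPCAM, the other epithelial marker listed, was low at 2.135 to 7.165 CPM (median 5.065). CDKN2A, which A549 cells have lost, was at 0 to 0.227 CPM. The defining alveolar markers NKX2-1 (at most 0.112 CPM) and SFTPC (at most 0.142 CPM) were close to absent. The 10 listed markers of alveolar and lung epithelium summed to 30.49 to 31.38 CPM in vehicle, mostly ABCA3 (18.16 to 32.24 CPM over all libraries). The summed level of 11 markers of other cell types, 1 of which was at 0 in each group, was 38.7 to 40.5 CPM in vehicle, 14.03 to 18.96 CPM at the high dose of Polygalae Radix, 23.9 to 27.3 CPM at that of Aucklandiae Radix, and 31.9 to 37.7 CPM across those of Menthae Herba and Guibi-tang. The leukocyte marker PTPRC was at most 0.0416 CPM in any library. COL1A1 made up much of the sum, at 11.0 to 39.8 CPM. CD14, a monocyte marker of the same list, went from 2.453 ± 0.0267 CPM in vehicle to 5.676 ± 0.485 in Aucklandiae Radix (adjusted p = 2.46e-07 by edgeR) and to 0.259 ± 0.151 in Polygalae Radix (adjusted p = 3.53e-13 by edgeR). The part of these markers in the keratin values was not tested.

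In vehicle-treated cells the 7 genes fell into an abundant and a scarce group. Per kilobase of exon, KRT81 reached 2516 CPM ± 76.7 (SD, n = 3), KRT18 897.8 ± 24.5, KRT8 543.1 ± 16.0 and KRT7 530.1 ± 21.5. KRT80 followed at 29.9 ± 0.789 CPM per kilobase, and KRT4 and KRT19 stood at 12.6 ± 0.13 and 12.5 ± 0.562. By this measure the order of KRT4 and KRT19, and that of KRT8 and KRT7, was within the spread of the vehicle libraries. The order depends on the length used, that of all annotated exons of a gene merged: 6881 bases for KRT8, 4093 for KRT7 and 3218 for KRT18. Without division by length, KRT8 (mean 3737 CPM) was above KRT18 (2889 CPM) and KRT7 (2170 CPM). The 7 genes together took 1.304% to 1.347% of all counts in vehicle, and 0.289% to 1.74% across all libraries, the lowest share being in a high dose library of Polygalae Radix. All further levels are in CPM of the gene, without division by length.

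**Figure D1:**
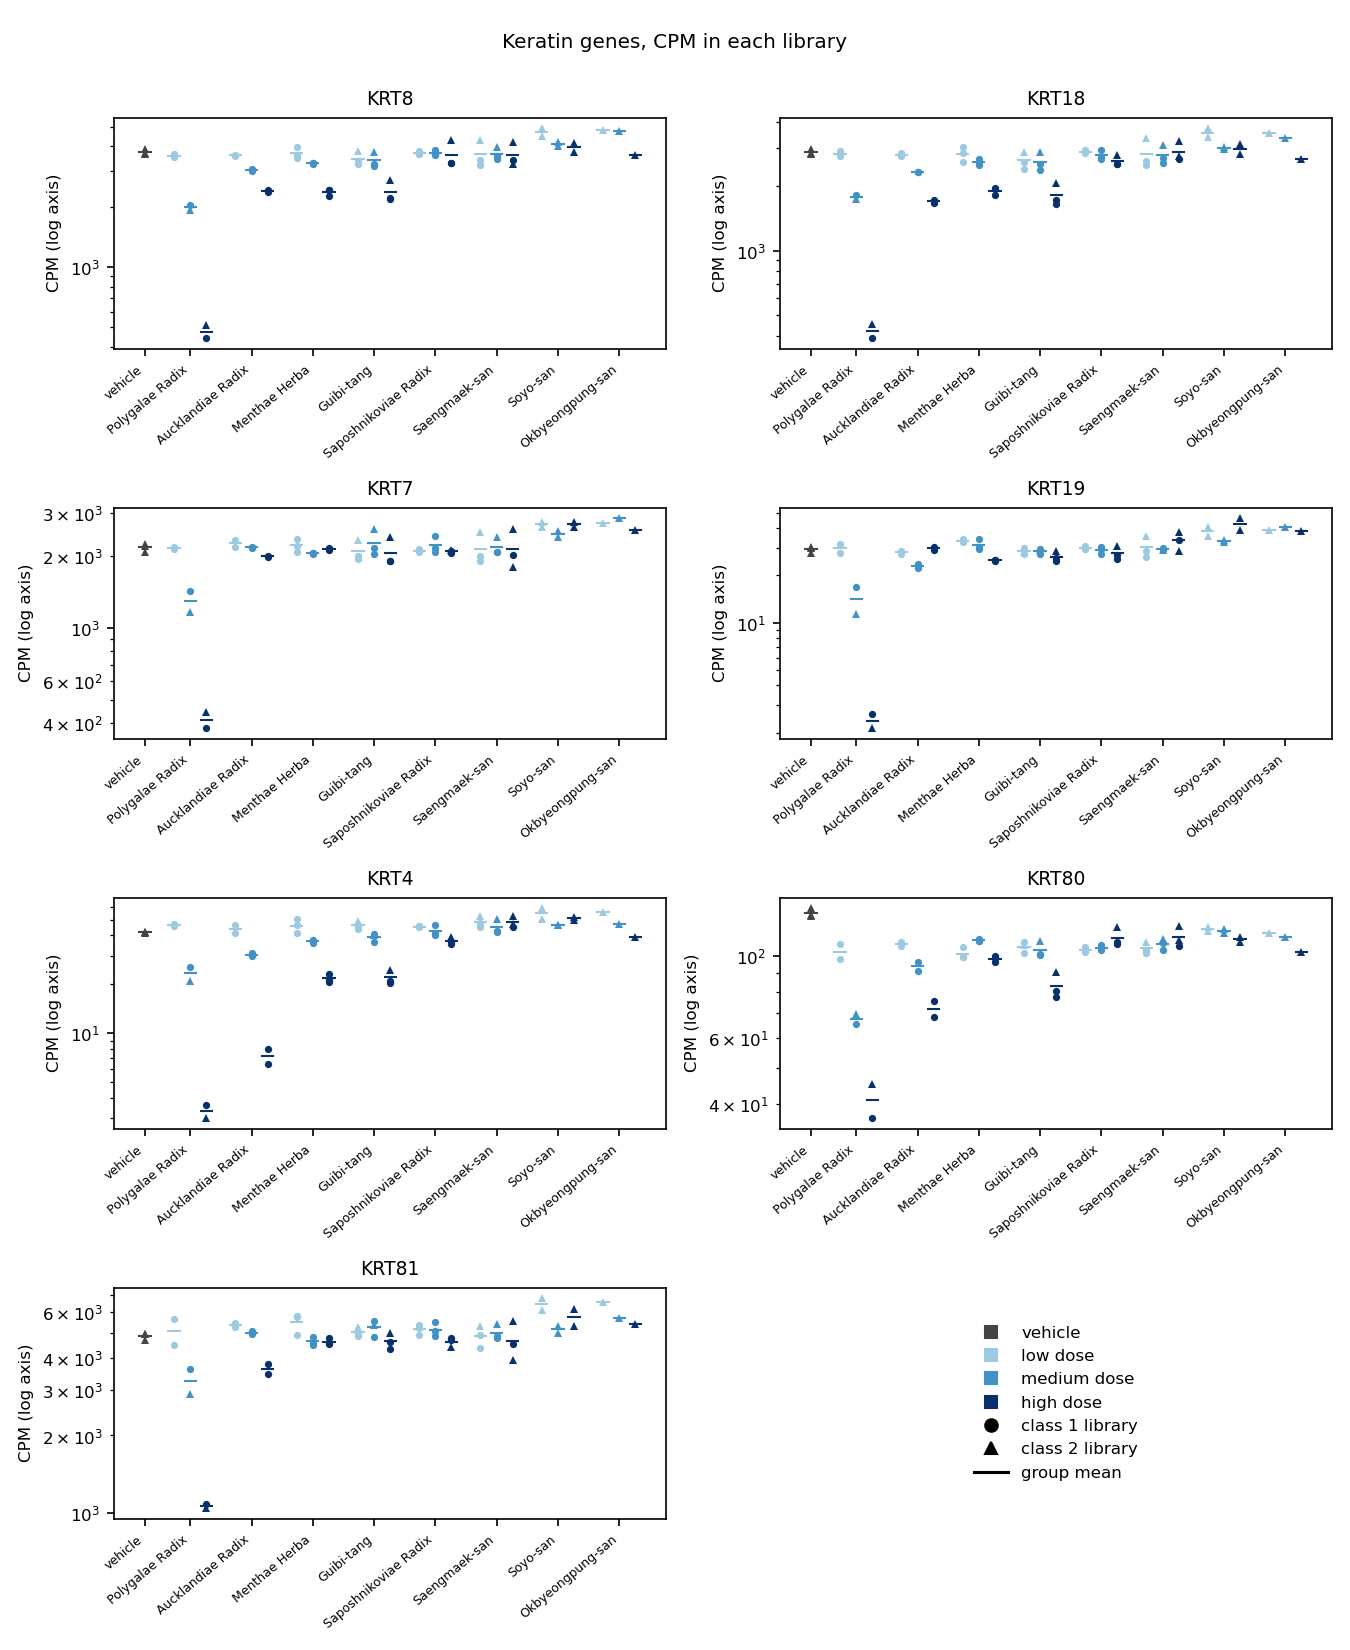
Level in CPM of each of the 7 keratin genes (log axis) in all 60 libraries, by extract, with dose shown by colour from light (low) to dark (high), library class by marker shape and the group mean as a line. For every gene the high dose of Polygalae Radix lies lowest, with KRT8 at 442.4 and 511.9 CPM against 3659 to 3863 CPM in vehicle.

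KRT8 and KRT18, the core pair of simple epithelia, were lowest at the high dose of Polygalae Radix and moderately lower at the high doses of Aucklandiae Radix, Menthae Herba and Guibi-tang. In the 3 vehicle libraries KRT8 was 3659, 3689 and 3863 CPM and KRT18 was 2827, 2863 and 2978 CPM. The high dose of Polygalae Radix had KRT8 at 442.4 and 511.9 CPM and KRT18 at 390.6 and 454.5 CPM. Both libraries lay far under every vehicle library, at 12.8% of the vehicle mean for KRT8 and 14.6% for KRT18.

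At the high dose of Menthae Herba KRT8 was 2372 ± 86.9 CPM (SD, n = 3), at that of Guibi-tang 2376 ± 299, and at that of Aucklandiae Radix 2368 and 2415 CPM. These 3 groups overlapped one another and none overlapped vehicle. KRT18 in the same groups was 1906 ± 75.8 CPM for Menthae Herba, 1813 ± 228 for Guibi-tang, and 1673 and 1722 CPM for Aucklandiae Radix, again below all vehicle libraries. Saposhnikoviae Radix (KRT8 3635 ± 567 CPM, n = 3), Saengmaek-san (3627 ± 513, n = 3) and Soyo-san (3758 and 4153) at the high dose overlapped vehicle, and the 1 high dose library of Okbyeongpung-san had 3624 CPM, just under the vehicle libraries. The wide spread of Saposhnikoviae Radix came from replicate 2, the only class 2 library of that group, with KRT8 at 4289 CPM beside 3305 and 3310 CPM in the others.

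Between doses, the levels of KRT8 were graded. In Polygalae Radix KRT8 was 3543 and 3658 CPM at the low dose, 1919 and 2048 at the medium dose, and 442.4 and 511.9 at the high dose, with no overlap between doses. Aucklandiae Radix gave 3595 and 3634, then 2998 and 3077, then 2368 and 2415 CPM, also without overlap. In Menthae Herba the low dose libraries (3512 to 3955 CPM) and the medium dose libraries (3284 to 3310 CPM) both stood above the high dose libraries (2272 to 2428 CPM). Guibi-tang had 3264 to 3778 CPM at the low dose and 3193 to 3760 at the medium dose, which overlapped, and 2191 to 2721 at the high dose, which did not. Replicate 3, the class 2 library at each of these doses, was the highest each time, and within each replicate number the medium dose was below the low dose. Soyo-san and Okbyeongpung-san, both in the fourth set of extracts, had their highest KRT8 at the low dose, at 4488 and 4940 CPM and at 4836 CPM.

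KRT18 followed KRT8 through these doses. It was 2753 and 2917 CPM at the low dose of Polygalae Radix and 1738 and 1815 CPM at the medium dose. Aucklandiae Radix had 2776 and 2842 CPM at the low dose and 2320 and 2328 at the medium dose. The Soyo-san low dose had 3381 and 3738 CPM, above every vehicle library, and the Okbyeongpung-san low dose 3526 CPM. Of the 57 treated libraries, 38 had less KRT8 and 37 had less KRT18 than every vehicle library, while 12 and 11 had more. All vehicle libraries are class 2, where KRT8 and KRT18 were higher by 0.22 and 0.21 on the log2 scale. They also form a set of their own, so this tally does not separate treatment from class or set.

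KRT7, the type II keratin of ducts and glands, was low in Polygalae Radix but near the vehicle level in the other single herbs. The vehicle libraries had 2073, 2192 and 2245 CPM, and the high dose libraries of Polygalae Radix 381.9 and 447.5 CPM, which is 19.1% of the vehicle mean. At the medium dose of that extract KRT7 was 1167 and 1418 CPM and at the low dose 2122 and 2162 CPM. The high dose of Menthae Herba gave 2128 ± 15.3 CPM (n = 3), that of Saposhnikoviae Radix 2084 ± 25.3 and that of Guibi-tang 2054 ± 282, all overlapping vehicle. Aucklandiae Radix at the high dose, with 1977 and 1989 CPM, lay just under the vehicle libraries. Soyo-san lay above them at each dose, with 2626 and 2765 CPM at the high dose, 2380 and 2531 at the medium dose and 2637 and 2773 at the low dose, as did Okbyeongpung-san with 2567, 2868 and 2735 CPM at the high, medium and low doses.

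KRT19, the small type I keratin that lacks a tail domain, showed one of the lowest percentages of vehicle in Polygalae Radix. Vehicle had 27.8, 29.8 and 30.3 CPM, and the high dose of Polygalae Radix 2.13 and 2.63 CPM, 8.13% of the vehicle mean. The medium dose had 11.3 and 16.8 CPM, and the low dose 27.7 and 31.7 CPM, which overlapped vehicle. Aucklandiae Radix did not share this pattern: its KRT19 was 29.2 and 30.4 CPM at the high dose, 22.2 and 23.8 at the medium dose and 27.5 and 28.7 at the low dose. Menthae Herba had 24.9 ± 0.348 CPM at the high dose (n = 3) and 33.3 ± 0.679 at the low dose, on either side of the vehicle libraries and clear of them. Guibi-tang had 26.3 ± 2.04, 28.6 ± 0.976 and 28.4 ± 1.21 CPM at the high, medium and low doses. Soyo-san at the high dose had 39.0 and 46.3 CPM, above all vehicle libraries, and Okbyeongpung-san 38.5 to 40.5 CPM over its 3 doses.

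KRT4, a keratin of stratified linings, separated the extracts over the widest range outside Polygalae Radix. The vehicle libraries lay close together at 41.2, 41.8 and 42.0 CPM. The high dose of Polygalae Radix had 3.00 and 3.59 CPM, and that of Aucklandiae Radix 6.43 and 7.97 CPM, which is 7.90% and 17.3% of the vehicle mean. KRT4 is therefore the gene of the 7 with the lowest level relative to vehicle in Aucklandiae Radix, whose KRT19 was at 102% of vehicle.

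Menthae Herba had KRT4 at 20.8, 21.6 and 23.0 CPM at the high dose, and Guibi-tang at 20.4, 21.1 and 24.7 CPM. These 6 libraries lay at about the same level, below all vehicle libraries. By the medium dose KRT4 was 36.7 ± 0.872 CPM for Menthae Herba, 39.2 ± 2.42 for Guibi-tang, 29.8 and 31.1 for Aucklandiae Radix and 21.0 and 25.7 for Polygalae Radix. At the low dose every extract had a mean above vehicle, from 43.7 ± 3.49 CPM for Aucklandiae Radix (n = 2) to 54.8 ± 5.85 for Soyo-san (n = 2), and 56.1 CPM in the 1 library of Okbyeongpung-san. Soyo-san at the high dose was also above vehicle, with 49.6 and 52.2 CPM, and Saengmaek-san had 45.0 to 52.9 CPM.

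KRT80 differed from the rest in that all 57 treated libraries, at whatever dose, had less of it than every vehicle library. Vehicle had 128.1, 128.5 and 134.3 CPM, and the highest treated library, one of Saengmaek-san at the high dose, had 120.3 CPM. Since vehicle forms a library set of its own, this gap cannot be told apart from one between sets. The low doses ranged from 101.1 ± 3.66 CPM for Menthae Herba (n = 3) to 118.1 ± 1.94 for Soyo-san (n = 2).

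Within sets, KRT80 was graded by dose in Polygalae Radix and Aucklandiae Radix. The former had 97.7 and 107.2 CPM at the low dose, 65.7 and 69.8 at the medium dose and 36.6 and 45.1 at the high dose. The latter had 106.0 and 108.8, then 90.7 and 96.4, then 68.3 and 75.4 CPM. Guibi-tang was at 105.6 ± 3.70 and 103.6 ± 4.97 CPM at the low and medium doses and 82.7 ± 6.97 at the high dose. In Menthae Herba the high dose (98.04 ± 1.78 CPM) and the low dose (101.1 ± 3.66) overlapped, and the medium dose was higher (109.9 ± 1.03). The range of KRT80 over all libraries, 3.67-fold, was the smallest of the 7 genes, against 21.7-fold for KRT19 and 19.7-fold for KRT4.

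KRT81, the hair keratin whose reads are shared with KRT86, was the most abundant of the 7. Vehicle had 4683, 4922 and 4953 CPM and the high dose of Polygalae Radix 1048 and 1085 CPM, 21.97% of the vehicle mean. The medium dose had 2899 and 3608 CPM and the low dose 4485 and 5658 CPM. Aucklandiae Radix had 3460 and 3774 CPM at the high dose, below all vehicle libraries, but 4916 and 5055 at the medium dose and 5229 and 5461 at the low dose. The high doses of Menthae Herba (4605 ± 137 CPM), Saposhnikoviae Radix (4605 ± 174) and Guibi-tang (4627 ± 325) overlapped vehicle. Soyo-san had 5319 and 6143 CPM at the high dose and 6089 and 6797 at the low dose, and Okbyeongpung-san 6540 CPM at the low dose.

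**Figure D2:**
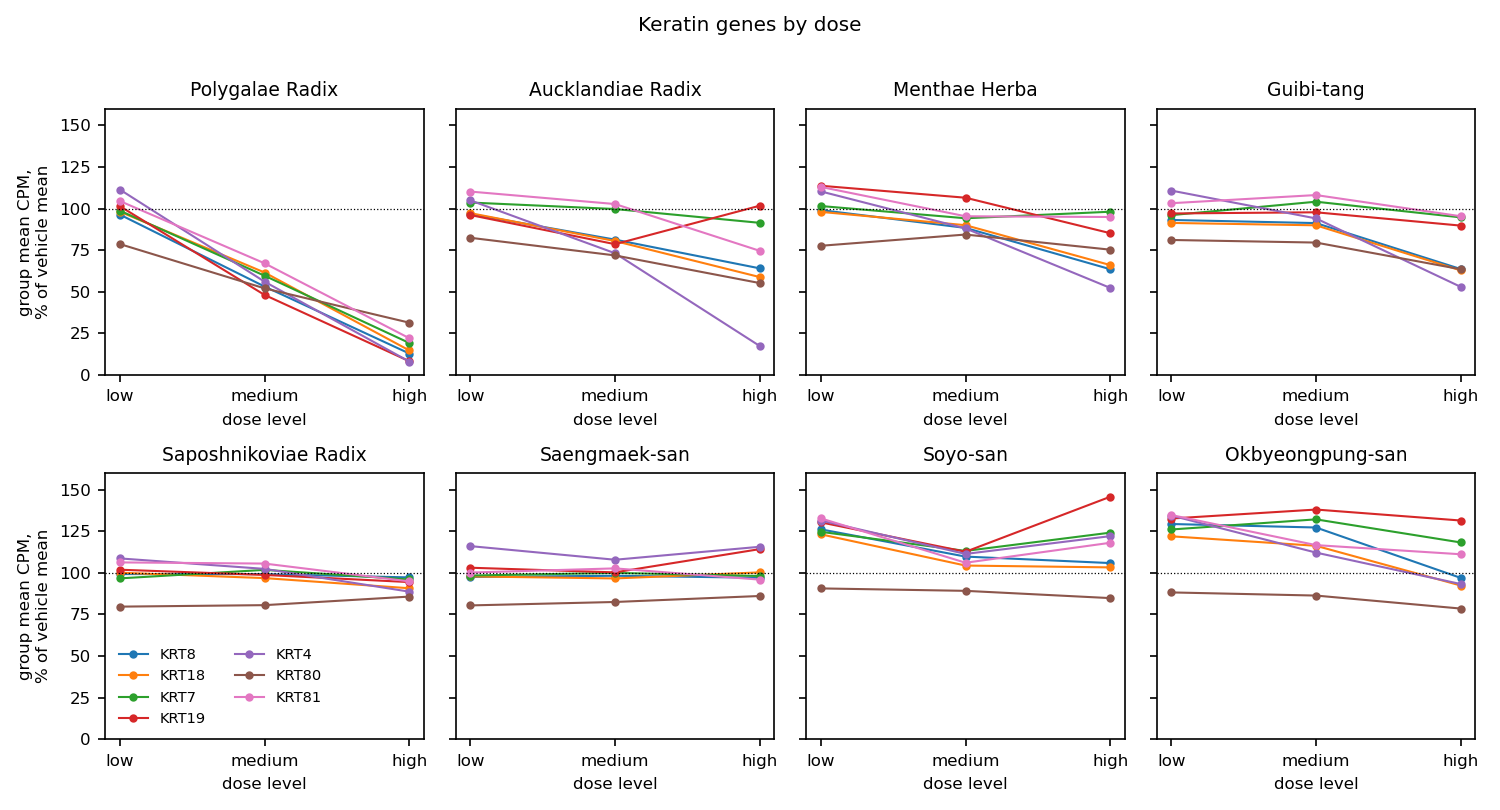
Group mean CPM of each of the 7 keratin genes as a percentage of the vehicle mean (dotted line at 100%) at the low, medium and high dose, 1 panel per extract; the spread between libraries is in the plot of single libraries. In Polygalae Radix all 7 lines fall with dose to between 7.90% (KRT4) and 31.3% (KRT80) of vehicle, while in Aucklandiae Radix KRT4 ends at 17.3% and KRT19 at 102%.

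The fitted changes put these levels on the log2 scale, from edgeR's quasi-likelihood model over 57 libraries, with all 18396 tested genes in the fit and a Benjamini-Hochberg adjusted p of 0.05 as the threshold. At the high dose of Polygalae Radix against vehicle, KRT4 was 12.5-fold lower (log2 -3.64, SE 0.13), KRT19 12.1-fold lower (-3.60, SE 0.15), KRT8 7.83-fold lower (-2.97, SE 0.12) and KRT18 6.84-fold lower (-2.77, SE 0.12). KRT7 was 5.23-fold lower (-2.39, SE 0.13), KRT81 4.55-fold lower (-2.19, SE 0.12) and KRT80 3.20-fold lower (-1.68, SE 0.07). All 7 were past the threshold as lower, where 29.5% of all genes were lower and 30.1% higher, and nothing is read from that count because the genes were chosen on these values. The median over the 7 was -2.77, and that over all genes tested was 0.05. In this bulk RNA, fewer cells making a keratin and less keratin RNA per cell cannot be told apart.

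For Aucklandiae Radix against vehicle, 5 of the 7 were past the threshold as lower (17.3% of all genes lower, 18.5% higher). KRT4 was lower by the widest margin (log2 -2.53, SE 0.11), followed by KRT80 (-0.86, SE 0.07), KRT18 (-0.77, SE 0.11), KRT8 (-0.64, SE 0.11) and KRT81 (-0.42, SE 0.11). KRT7 was at -0.13 (SE 0.12) and KRT19 at 0.02 (SE 0.11). The 2 herbs of this library set, Polygalae Radix and Aucklandiae Radix, thus had the lowest 2 KRT4 values and very different KRT19 values.

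Menthae Herba and Guibi-tang against vehicle each had 4 of the 7 past the threshold as lower, KRT4, KRT8, KRT18 and KRT80. In Menthae Herba the background was 15% lower and 14.6% higher, and in Guibi-tang 5.05% lower and 4.51% higher. KRT4 was at -0.94 (SE 0.09) in Menthae Herba and -0.92 (SE 0.09) in Guibi-tang, KRT8 at -0.66 (SE 0.10) and -0.65 (SE 0.10), KRT18 at -0.60 (SE 0.09) and -0.67 (SE 0.09), and KRT80 at -0.41 (SE 0.06) and -0.66 (SE 0.06). Both comparisons use the same vehicle libraries, so they are not independent.

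The remaining extracts differed from vehicle by at most 0.54 on the log2 scale in each of these genes. In Saposhnikoviae Radix 1 of the 7, KRT80 (-0.22, SE 0.06), was past the threshold as lower, with 0.451% of all genes lower and 0.593% higher. In Saengmaek-san it was again KRT80 alone (-0.22, SE 0.06), with 1.83% lower and 1.96% higher. Soyo-san had KRT19 (0.54, SE 0.11), KRT7 (0.31, SE 0.12) and KRT4 (0.29, SE 0.09) past it as higher and KRT80 (-0.24, SE 0.07) as lower, with 15.6% of all genes lower and 13% higher. The Soyo-san libraries are all of class 2, as are those of vehicle, but belong to another library set. Leaving out 1 library took the number past the threshold in Soyo-san from 4 to 2 (without replicate 2 of vehicle or replicate 1 of Soyo-san) or 1 (without replicate 2 of Soyo-san), and KRT80 in Saposhnikoviae Radix and in Saengmaek-san was no longer past it without any 1 of the vehicle libraries or without 2 of the 3 treated libraries in turn (replicates 1 and 3, and replicates 1 and 2).

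**Figure D3:**
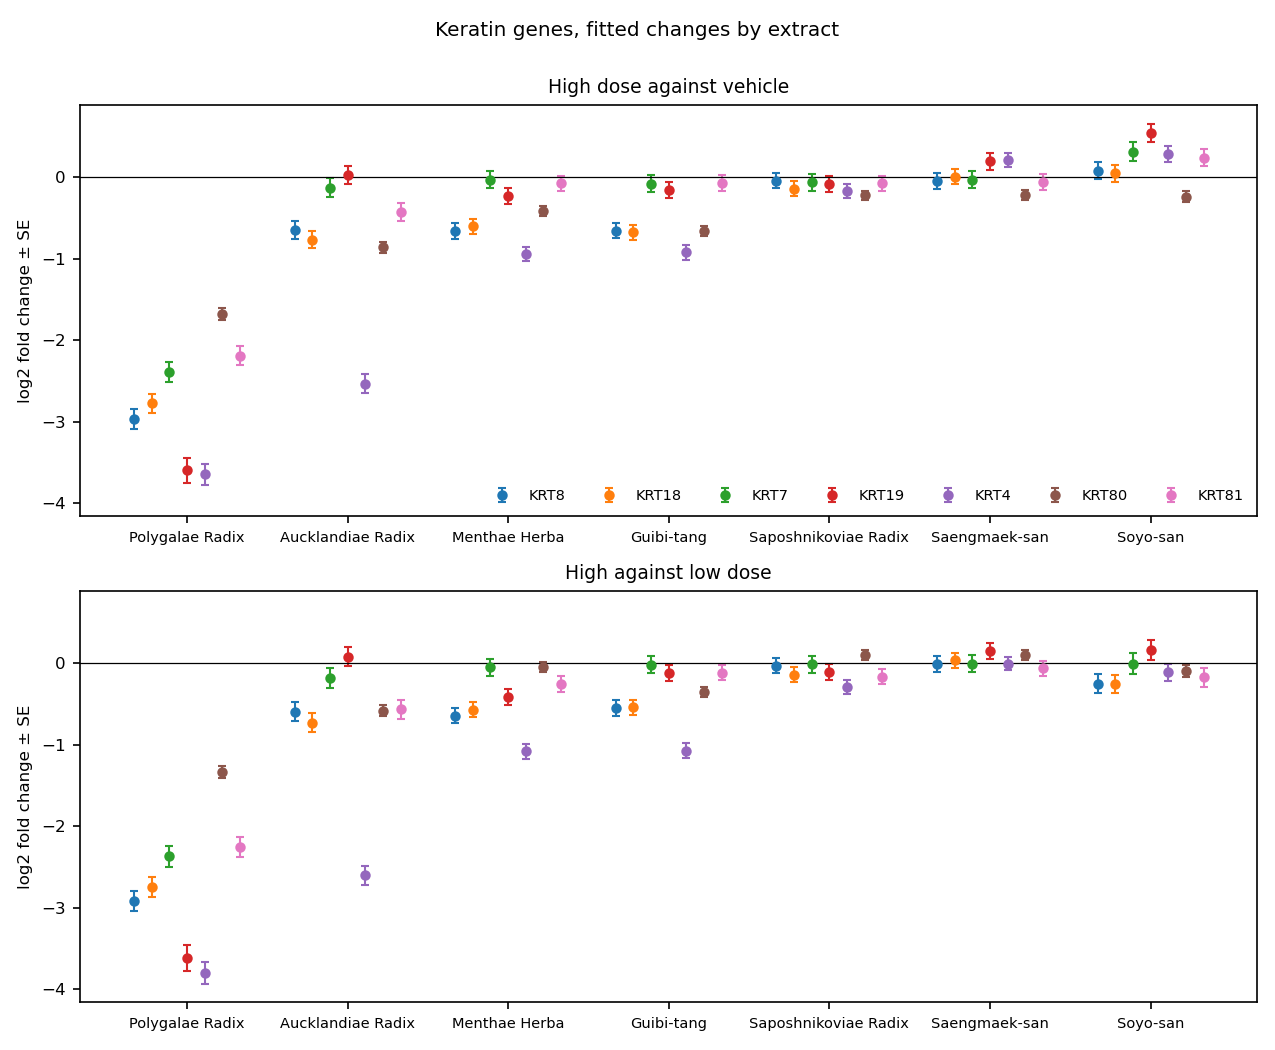
Fitted log2 fold change with its standard error for each of the 7 keratin genes in 7 extracts, high dose against vehicle (upper panel) and high against low dose (lower panel). All 7 points lie well below zero in Polygalae Radix in both panels, and KRT4 stands apart in Aucklandiae Radix at -2.53 and -2.60.

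High and low doses come from the same library set and use no vehicle library. In Polygalae Radix all 7 were past the threshold as lower at the high dose (29.1% of all genes lower, 27.9% higher), from -1.33 (SE 0.07) for KRT80 to -3.80 (SE 0.13) for KRT4. KRT19 was at -3.62 (SE 0.16), KRT8 at -2.92 (SE 0.13), KRT18 at -2.75 (SE 0.12), KRT7 at -2.37 (SE 0.13) and KRT81 at -2.25 (SE 0.12). In Aucklandiae Radix 5 were lower (9.33% of all genes lower, 9.12% higher): KRT4 at -2.60 (SE 0.12), KRT18 at -0.73 (SE 0.11), KRT8 at -0.60 (SE 0.12), KRT80 at -0.58 (SE 0.07) and KRT81 at -0.56 (SE 0.12).

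In Menthae Herba 4 were lower at the high than at the low dose (9.45% of all genes lower, 6.07% higher), and KRT19 stood in place of KRT80: KRT4 was at -1.08 (SE 0.09), KRT8 at -0.64 (SE 0.10), KRT18 at -0.57 (SE 0.09), KRT19 at -0.42 (SE 0.10) and KRT80 at -0.04 (SE 0.06). In Guibi-tang 4 were lower (1.97% of all genes lower, 0.962% higher), with KRT4 at -1.07 (SE 0.09), KRT8 at -0.55 (SE 0.10), KRT18 at -0.54 (SE 0.09) and KRT80 at -0.35 (SE 0.06). Few genes of any kind changed between doses of the other 3 extracts: 0.0489% lower and 0.0217% higher in Saposhnikoviae Radix, 0.0109% and 0.0598% in Saengmaek-san, and 0.837% and 0.402% in Soyo-san. In Saposhnikoviae Radix the log2 values of the 7 ran from -0.29 (KRT4) to 0.11 (KRT80), in Saengmaek-san from -0.06 (KRT81) to 0.16 (KRT19) and in Soyo-san from -0.25 (KRT18) to 0.16 (KRT19).

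Library class moved several of these values. With class as a term in the fit, KRT8 against vehicle was -0.43 in place of -0.64 for Aucklandiae Radix, -0.44 in place of -0.66 for Menthae Herba and -0.52 in place of -0.65 for Guibi-tang, and KRT18 was -0.55, -0.39 and -0.54 in the same order. KRT4 was -2.41, -0.82 and -0.85. For Polygalae Radix the class 2 library alone against vehicle, which is also class 2, gave -2.87 for KRT8, -2.67 for KRT18, -2.28 for KRT7, -3.77 for KRT19, -3.80 for KRT4, -1.53 for KRT80 and -2.21 for KRT81. The class 1 library of its high dose against the low dose, whose libraries are both class 1, gave -3.02 for KRT8, -2.86 for KRT18 and -3.69 for KRT4. In Guibi-tang, the comparison of high with low dose within class 1 gave -0.60 for KRT8 and -1.11 for KRT4, and within class 2, with 1 library a dose, -0.47 and -0.998.

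KRT8 and KRT18 did not keep one ratio through the treatments. KRT8 over KRT18, both in CPM, was 1.29 in all vehicle libraries (1.288 to 1.297). At the high dose it was 1.13 in Polygalae Radix (1.126 and 1.133) and 1.24 ± 0.00546 in Menthae Herba (1.238 to 1.249), both below vehicle, but 1.41 in Aucklandiae Radix (1.403 and 1.415), above it. Guibi-tang (1.289 to 1.331) overlapped vehicle. The vehicle range is narrow, and lying outside it was not particular to these groups. Soyo-san at the high dose (1.316 and 1.336) and Okbyeongpung-san at the high (1.358) and medium dose (1.415) were above it. Polygalae Radix at the medium dose (1.104 and 1.128) was below it. The ratio of 1.53 in replicate 2 of Saposhnikoviae Radix at the high dose stood apart from 1.306 and 1.308 in the other libraries of its group.

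KRT8 over KRT7, 2 type II keratins, was 1.72 in vehicle (1.63 to 1.779) and near 1.1 to 1.2 at the high dose of 4 extracts. It was 1.15 in Polygalae Radix (1.144 and 1.158), 1.21 in Aucklandiae Radix (1.198 and 1.214), 1.11 in Menthae Herba (1.069 to 1.149) and 1.16 in Guibi-tang (1.143 to 1.172). Soyo-san (1.431 and 1.502) and Okbyeongpung-san (1.412) were intermediate. Saposhnikoviae Radix (1.582 to 2.039) and Saengmaek-san (1.625 to 1.821) overlapped vehicle. KRT18 over KRT81 behaved alike, with 0.596 in vehicle (0.5707 to 0.6114), 0.397 in Polygalae Radix, 0.471 in Aucklandiae Radix, 0.414 in Menthae Herba and 0.391 in Guibi-tang, none of whose libraries reached the vehicle range. Being below vehicle was not particular to these groups: Soyo-san at the high dose (0.5139 and 0.529) and the low doses of Aucklandiae Radix (0.5203 and 0.5309) and Guibi-tang (0.4855 to 0.5546) were below it as well. A ratio within a library does not depend on its scaling, but it can follow library class. In class 2, KRT18 was higher by 0.21 (SE 0.03) on the log2 scale and KRT81 by 0.04 (SE 0.05). KRT8 and KRT7 were higher there by 0.22 and 0.19. Vehicle libraries were all class 2, and those of Aucklandiae Radix and Menthae Herba all class 1. The part of class in these ratios was not tested.

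**Figure D4:**
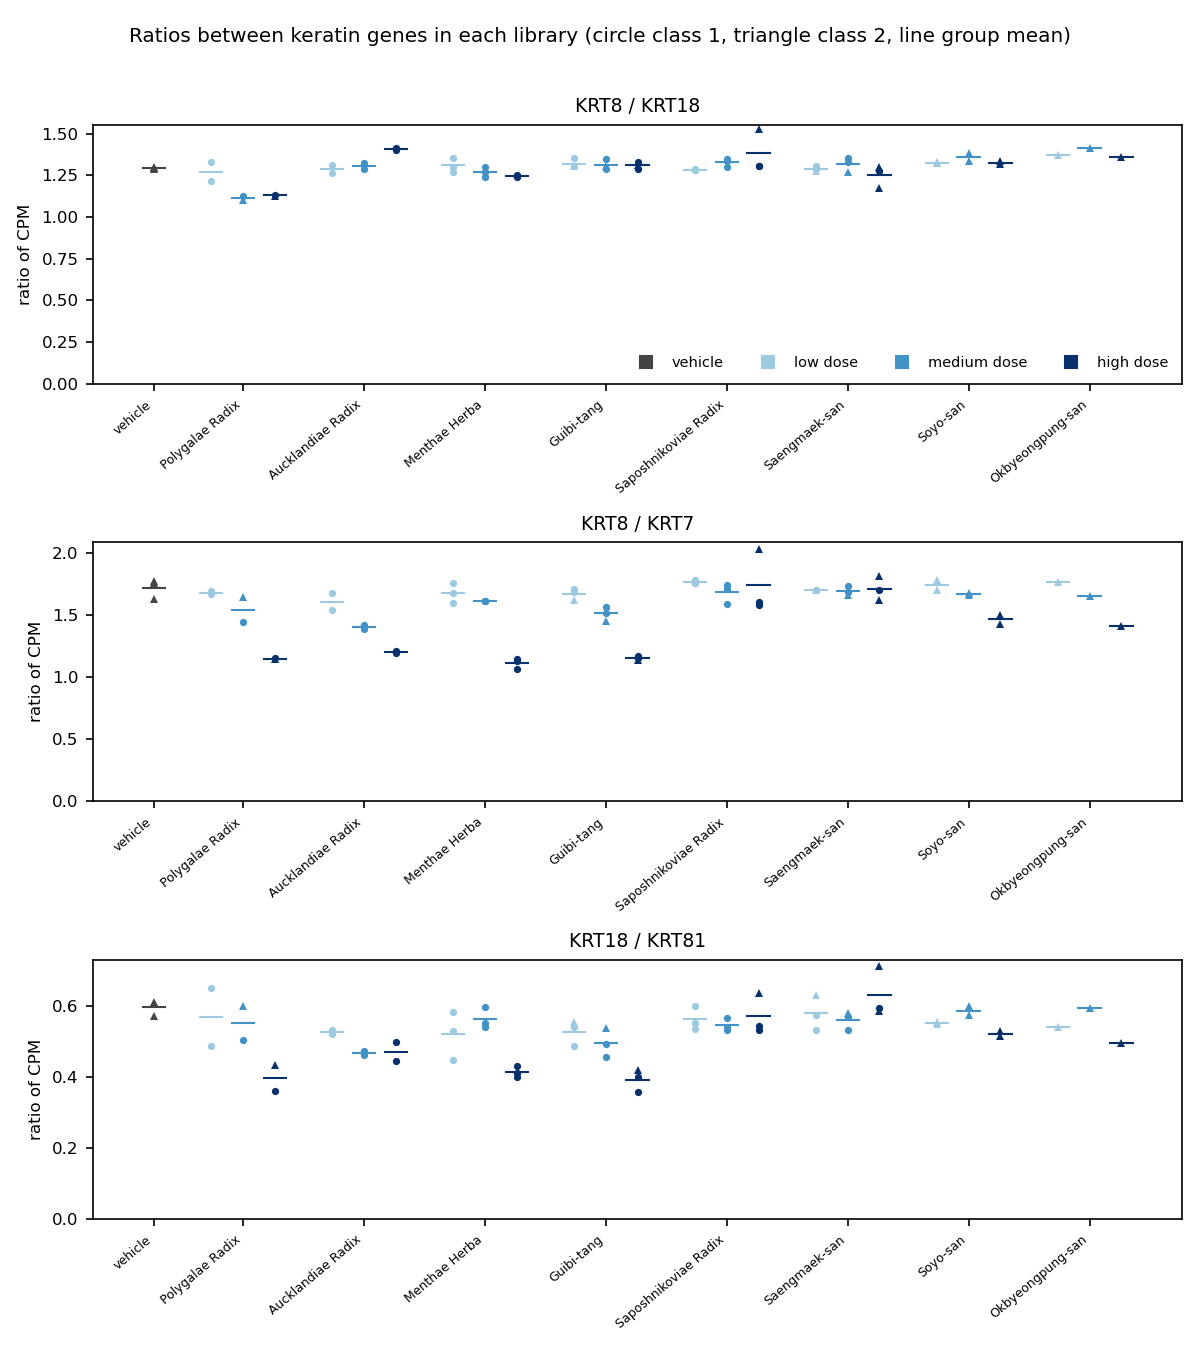
Ratios of CPM between keratin genes in every library: KRT8 over KRT18, KRT8 over KRT7 and KRT18 over KRT81, by extract and dose, with group means as lines. KRT8 over KRT7 at the high dose is 1.069 to 1.214 in the libraries of Polygalae Radix, Aucklandiae Radix, Menthae Herba and Guibi-tang, below the 1.63 to 1.779 of vehicle.

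Extracts of the same library set can be compared through their change from low to high dose. Polygalae Radix minus Aucklandiae Radix gave -3.70 (SE 0.20) for KRT19, -2.32 (SE 0.17) for KRT8, -2.19 for KRT7, -2.02 (SE 0.16) for KRT18, -1.69 for KRT81, -1.20 for KRT4 and -0.75 for KRT80, all on the log2 scale. Their doses differed slightly (380 and 370 ug/mL at the high dose). Guibi-tang minus Saengmaek-san gave -1.07 (SE 0.12) for KRT4, -0.58 for KRT18, -0.54 for KRT8 and -0.45 for KRT80. These differences describe the chosen genes and carry no test. Of the 8 tested keratins, 4 differed between Polygalae Radix and Aucklandiae Radix by edgeR, in a comparison where 8436 of 18396 genes differed. They were KRT15 (log2 -3.60, SE 0.51, adjusted p = 1.38e-07 by edgeR) and the scarce KRT16, KRT17 and KRT20. By DESeq2's Wald test only KRT15 passed.

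The 8 other keratins with enough counts were tested, and at the high dose of Polygalae Radix most of them moved down with the chosen genes. Against vehicle 6 of the 8 fell and 1 rose (adjusted p by edgeR over all genes tested), beside 29.5% and 30.1% of all genes, and the median over the 8 was -2.02. KRT86, the near copy of KRT81, fell from 25.6 ± 1.05 CPM (n = 3) to 6.54 ± 1.56 (n = 2), log2 -1.94 (SE 0.51, adjusted p = 0.00105 by edgeR). Of its 100-base windows 25.84% occur in another gene, most of them in the far more abundant KRT81, so its fall is not independent of the chosen genes. KRT83, another hair keratin, fell from 2.05 ± 0.205 to 0.714 ± 0.069 CPM (log2 -1.53, SE 0.37, adjusted p = 0.000538 by edgeR). KRT10, a type I keratin of the upper epidermis, went the other way, from 29.5 ± 1.66 to 43.7 ± 7.06 CPM (log2 0.57, SE 0.14, adjusted p = 0.000487 by edgeR). KRT222 did not pass (adjusted p = 0.574 by edgeR). In KRT222 transcripts 32.48% of the 100-base windows also occur in another gene, ENSG00000264058, so its counts are uncertain in every comparison. Without replicate 3 of the high dose, KRT10 was at 0.39 and no longer passed (adjusted p = 0.054 by edgeR).

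The other 4 that fell in Polygalae Radix were scarce. KRT17, a keratin of injured and basal epithelium, had 57 counts summed over vehicle and 3 over the high dose, a ratio of vehicle to treated of 11.8 (95% exact binomial interval 3.85 to 59.1, adjusted p = 1.85e-06 by edgeR), and KRT15, a keratin of basal cells, had 70 and 10 counts, a ratio of 4.36 (2.24 to 9.49, adjusted p = 1.87e-05 by edgeR). KRT16, another keratin of injured epithelium, had 19 counts and 1 count, a ratio of 11.8 (1.88 to 491.7, adjusted p = 0.00799 by edgeR). KRT20, an intestinal keratin, had 18 counts and 2, a ratio of 5.61 (1.34 to 49.8, adjusted p = 0.0123 by edgeR). The intervals cover counting error only, and reads without molecular identifiers are not independent molecules. KRT16 and KRT20 are at the limit of this depth, and each missed the threshold in 1 fit with a library left out: KRT16 without replicate 2 of the high dose (adjusted p = 0.0621 by edgeR) and KRT20 without replicate 3 of it (adjusted p = 0.122 by edgeR).

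Against the low dose, the same 6 keratins fell in Polygalae Radix and KRT10 did not pass (adjusted p = 0.828 by edgeR). KRT10 was already 42.5 ± 3.09 CPM at the low dose. Of the 6, KRT16 had its highest values in replicate 2 of the medium dose of Saposhnikoviae Radix (0.436 CPM) and replicate 3 of this low dose (0.4007 CPM). Its pass of the filter on low counts thus rests in part on the low dose, so its fall from that dose is not independent of the filter. KRT83 was at -2.08 (adjusted p = 1.11e-05 by edgeR), KRT86 at -2.18 (0.000523), KRT15 at -2.25 (1.23e-05) and KRT17, with 55 and 3 counts, at a ratio of low to high dose of 15.6 (5.05 to 77.7, adjusted p = 3.2e-07 by edgeR). KRT86 at the low dose was uneven, at 30.2 ± 18.9 CPM over 2 libraries, and without replicate 3 of that dose it was at -1.34 and did not pass (adjusted p = 0.0636 by edgeR). KRT16 (adjusted p = 0.00477 by edgeR) and KRT20 (adjusted p = 0.0094 by edgeR) also fell, but KRT16 did not pass without replicate 3 of the low dose (adjusted p = 0.0743 by edgeR), nor KRT20 without replicate 3 of the high dose (adjusted p = 0.096 by edgeR).

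In Aucklandiae Radix 2 of the 8 changed against vehicle, 1 in each direction (17.3% of all genes lower, 18.5% higher), and 4 between doses (9.33% lower, 9.12% higher), with KRT15 higher in both. KRT15 rose from 0.874 ± 0.117 CPM in vehicle to 2.54 ± 0.376 (log2 1.53, SE 0.27, adjusted p = 1.48e-05 by edgeR) and from 0.986 ± 0.183 CPM at the low dose (log2 1.36, SE 0.29, adjusted p = 0.000605 by edgeR). KRT17 fell from 0.720 ± 0.198 to 0.188 ± 0.0358 CPM against vehicle (log2 -1.91, SE 0.44, adjusted p = 0.000734 by edgeR). Between doses KRT17, KRT83 and KRT222 fell (adjusted p = 0.0193, 0.0104 and 0.0346 by edgeR). With KRT15 this made 4 changed keratins, but 1 passed without replicate 3 of the high dose or replicate 2 of the low dose, and 2 without replicate 2 of the high dose.

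Elsewhere KRT10 was higher in Menthae Herba (42.1 ± 2.93 CPM, log2 0.51, SE 0.13, adjusted p = 0.00166 by edgeR) and in Soyo-san (39.9 ± 0.621 CPM, log2 0.44, SE 0.14, adjusted p = 0.0169 by edgeR) than in vehicle, and KRT222 was higher in Menthae Herba (1.64 ± 0.451 against 0.775 ± 0.0495 CPM, log2 1.08, adjusted p = 0.012 by edgeR). At the low dose of Menthae Herba KRT10 was already 33.35 to 51.34 CPM. Its difference from vehicle in that extract thus cannot be told apart from one between library sets. The sharing of KRT222 windows with another gene, given above, applies here too. The KRT10 call in Soyo-san was lost without replicate 1 of vehicle (adjusted p = 0.0622 by edgeR) or without replicate 1 or 2 of Soyo-san (0.066 and 0.105), and the KRT222 call in Menthae Herba without its replicate 3 (adjusted p = 0.0868 by edgeR). Class 2 libraries had less KRT10 than class 1 libraries by 0.14 (SE 0.06) on the log2 scale. In the other comparisons of these 8, edgeR called none at the adjusted threshold and DESeq2 none either: at an unadjusted p under 0.05 edgeR had 2, 1 and 2 of the 8 against vehicle for Saposhnikoviae Radix, Saengmaek-san and Guibi-tang, and 2, 1, 2, 0 and 2 between doses for Menthae Herba, Saposhnikoviae Radix, Saengmaek-san, Guibi-tang and Soyo-san. Without replicate 3 of its high dose, Guibi-tang had KRT17 past the threshold, against vehicle (log2 -1.67, adjusted p = 0.00473 by edgeR) and against the low dose (log2 -1.42, adjusted p = 0.0426 by edgeR).

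**Figure D5:**
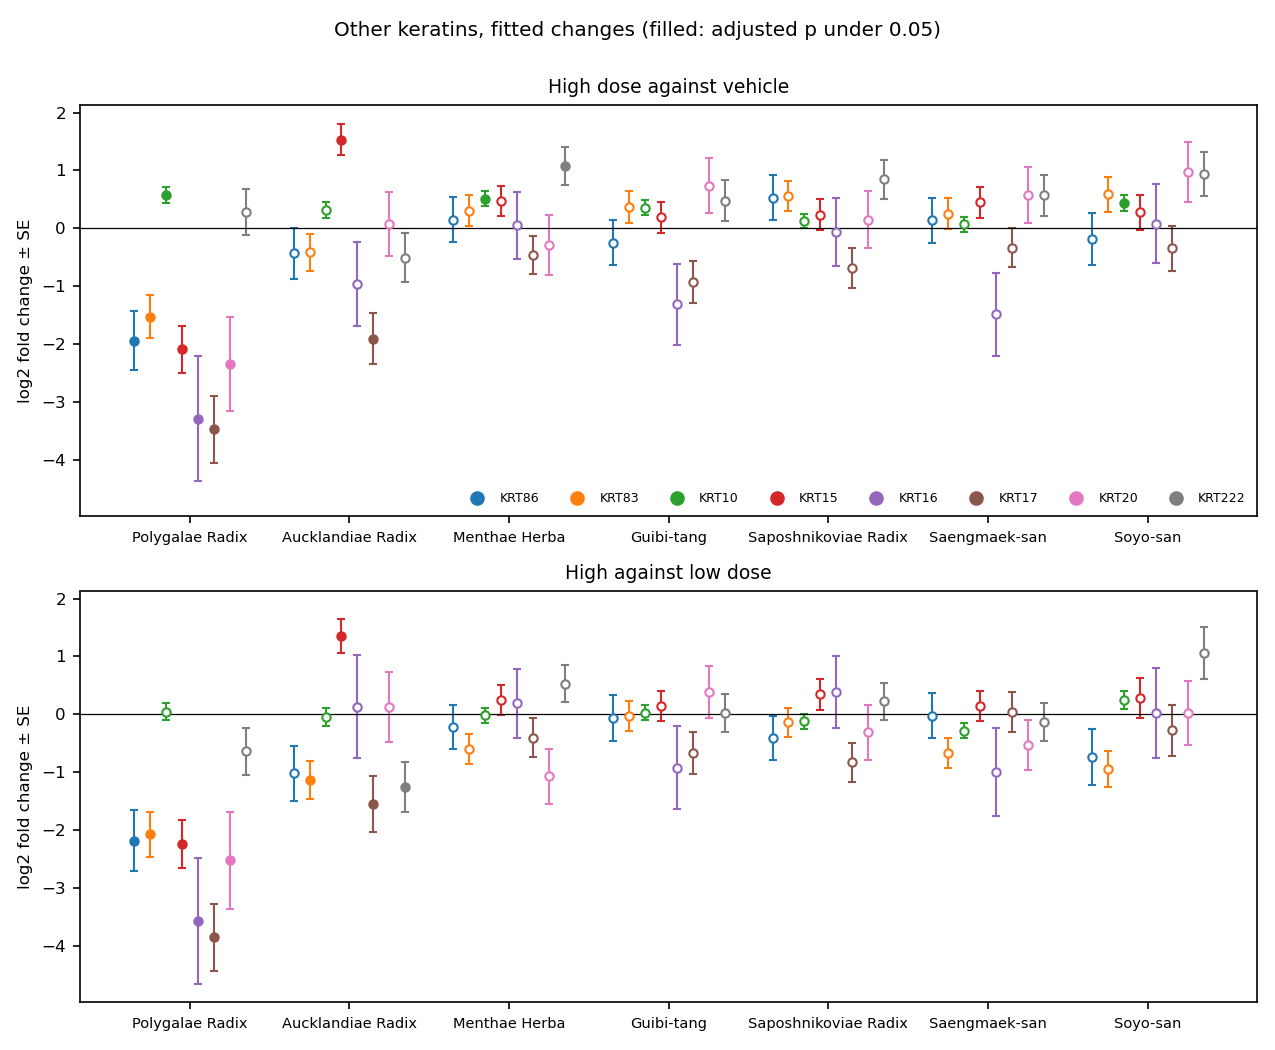
Fitted log2 fold change with its standard error for the 8 tested keratins outside the chosen 7, high dose against vehicle (upper panel) and high against low dose (lower panel), with filled points where the adjusted p is under 0.05. In Polygalae Radix 6 keratins are filled below zero in both panels, and in Aucklandiae Radix KRT15 is filled above zero at 1.53 and 1.36.

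The genes that hold and accompany keratin filaments were taken from 4 lists. Of 16 tested anchors (desmosome, plakin and hemidesmosome genes, 21 listed), 12 fell at the high dose of Polygalae Radix against vehicle (29.5% of all genes lower), with a median of -1.36 beside 0.05 over all genes. ITGB4, the integrin chain of hemidesmosomes, fell from 35.9 ± 1.12 to 4.04 ± 0.256 CPM (log2 -3.16, SE 0.12, adjusted p = 4.68e-25 by edgeR). DSP, which links keratin to desmosomes, fell from 214.0 ± 4.34 to 57.1 ± 5.89 CPM (log2 -1.90, SE 0.11, adjusted p = 6.39e-19 by edgeR), and its partner JUP from 346.3 ± 4.11 to 88.8 ± 30.7 CPM (log2 -1.97, SE 0.17, adjusted p = 1.86e-13 by edgeR).

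In Menthae Herba 9 of the 16 anchors fell (15% of all genes; median -0.58, all genes -0.00), with JUP at 170.3 ± 5.81 CPM (log2 -1.02, SE 0.14, adjusted p = 2.14e-07 by edgeR). In Guibi-tang 4 fell (5.05% of all genes; median -0.25, all genes 0.02) and in Soyo-san 6 fell and 1 rose (15.6% and 13% of all genes; median -0.26, all genes 0.05). DSP fell in both, to 142.9 ± 7.59 CPM (adjusted p = 1.41e-05 by edgeR) and 139.6 ± 3.90 CPM (adjusted p = 1.98e-05 by edgeR), although KRT8 in Soyo-san was 106% of vehicle. In Aucklandiae Radix 4 fell and 3 rose (17.3% and 18.5% of all genes; median -0.04, all genes 0.02). Of the rises, DSC2, a desmosomal cadherin, went from 4.82 ± 0.449 to 7.63 ± 0.434 CPM (adjusted p = 0.000295 by edgeR).

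Between high and low dose, 11 anchors fell and 2 rose in Polygalae Radix (29.1% and 27.9% of all genes; median -1.15, all genes 0.04). In Menthae Herba 6 fell (9.45% of all genes; median -0.38, all genes -0.01), and in Aucklandiae Radix 1 fell and 3 rose (9.33% and 9.12% of all genes; median 0.19, all genes 0.01). In Guibi-tang and in Soyo-san the 1 anchor that fell (1.97% and 0.837% of all genes) was DSP (adjusted p = 0.0019 and 0.0189 by edgeR).

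Other intermediate filament genes, 14 of 16 listed being tested, fell in Polygalae Radix in 8 cases against vehicle (29.5% of all genes lower; median -0.70). VIM, the filament of mesenchymal cells that A549 cells also make, fell from 1051 ± 42.2 to 269.0 ± 27.2 CPM (log2 -1.97, SE 0.09, adjusted p = 2.33e-21 by edgeR), and the nuclear lamin LMNA from 409.9 ± 27.3 to 86.4 ± 0.0661 CPM (log2 -2.25, SE 0.09, adjusted p = 1.52e-24 by edgeR). In Aucklandiae Radix VIM was 1048 ± 25.1 CPM (adjusted p = 0.981 by edgeR), 4 of the 14 fell and 3 rose (17.3% and 18.5% of all genes), among them the neuronal filament INA, from 27.1 ± 0.424 to 51.1 ± 0.0122 CPM (log2 0.91, SE 0.14, adjusted p = 1.4e-06 by edgeR). Menthae Herba also had 4 down and 3 up (15% and 14.6% of all genes), with the neurofilament NEFL rising from 3.65 ± 0.414 to 6.73 ± 0.428 CPM (log2 0.88, SE 0.13, adjusted p = 1.71e-06 by edgeR). In Guibi-tang 5 fell (5.05% of all genes), with LMNA at 335.6 ± 4.70 CPM (log2 -0.29, SE 0.07, adjusted p = 0.00526 by edgeR).

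Among 12 proteins that bind keratins or regulate their filaments, 8 fell and 1 rose in Polygalae Radix against vehicle (median -0.39), 5 fell and 2 rose in Aucklandiae Radix (median -0.18), 4 fell and 3 rose in Menthae Herba (median -0.20), and 2 fell and 1 rose in Guibi-tang (median -0.09). The shares of all genes that were lower and higher were 29.5% and 30.1%, 17.3% and 18.5%, 15% and 14.6%, and 5.05% and 4.51% in that order. The small heat shock protein CRYAB, a chaperone of intermediate filaments, fell from 5.82 ± 0.363 CPM in vehicle to 0.663 ± 0.0176 in Aucklandiae Radix (log2 -3.12, SE 0.25, adjusted p = 3.75e-13 by edgeR), to 2.60 ± 0.349 in Menthae Herba (log2 -1.16, SE 0.18, adjusted p = 2.25e-06 by edgeR) and to 2.54 ± 0.661 in Guibi-tang (log2 -1.21, SE 0.18, adjusted p = 9.19e-06 by edgeR). In Polygalae Radix CRYAB did not pass (log2 -0.15, adjusted p = 0.515 by edgeR), while its relative HSPB1 fell from 423.1 ± 30.6 to 123.0 ± 49.97 CPM (log2 -1.79, SE 0.20, adjusted p = 1.91e-10 by edgeR). TRADD, a death receptor adaptor that binds KRT18, rose in Aucklandiae Radix from 11.1 ± 0.723 to 21.4 ± 1.61 CPM (log2 0.95, SE 0.11, adjusted p = 2.52e-09 by edgeR). The high doses of Guibi-tang (15.5 CPM, adjusted p = 0.000889 by edgeR), Menthae Herba (14.2 CPM, 0.00538) and Soyo-san (15 CPM, 0.0028) were also above vehicle. The low dose of Aucklandiae Radix was already at 15.4 ± 1.28 CPM, below its high dose (adjusted p = 0.00232 by edgeR). Part of the difference from vehicle thus cannot be told apart from one between library sets.

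Of 15 tested transcription factors known to act on epithelial genes, 4 fell and 8 rose in Polygalae Radix against vehicle (median 0.55), 7 fell and 3 rose in Aucklandiae Radix (median -0.31), 5 fell and 1 rose in Menthae Herba (median -0.15), and 3 fell and 1 rose in Guibi-tang (median -0.16). Of all genes, 29.5% were lower and 30.1% higher in Polygalae Radix, 17.3% and 18.5% in Aucklandiae Radix, 15% and 14.6% in Menthae Herba, and 5.05% and 4.51% in Guibi-tang, so the 4 that fell in Polygalae Radix and the 3 that rose in Aucklandiae Radix are near the background. EHF, an epithelial ETS factor, fell from 2.47 ± 0.176 CPM in vehicle to 0.638 ± 0.0389 in Polygalae Radix (log2 -1.94, SE 0.24, adjusted p = 2.56e-09 by edgeR), 0.675 ± 0.15 in Aucklandiae Radix (log2 -1.86, SE 0.23, adjusted p = 1.56e-08 by edgeR), 1.58 ± 0.475 in Menthae Herba (adjusted p = 0.00511 by edgeR) and 1.57 ± 0.337 in Guibi-tang (adjusted p = 0.0137 by edgeR). KLF4, a factor of epithelial differentiation, rose in Polygalae Radix from 8.63 ± 0.275 to 22.5 ± 2.92 CPM (log2 1.37, SE 0.12, adjusted p = 1.3e-12 by edgeR) and in Aucklandiae Radix to 15.4 ± 0.796 (log2 0.83, SE 0.13, adjusted p = 1.47e-06 by edgeR). Against the low dose, TFAP2C rose in Polygalae Radix from 35.5 ± 0.601 to 79.7 ± 11.3 CPM (log2 1.16, SE 0.10, adjusted p = 1.51e-13 by edgeR). Of 11 genes of the cornified envelope, the end stage of squamous differentiation, only 4 passed the filter on low counts.

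The genes whose group means followed each keratin most closely were sought among 8292 genes whose mean level was at least 4 in log2 CPM, by Pearson correlation over the 22 groups of the fit, and again over 19 groups without Polygalae Radix. The groups share library sets, classes and the vehicle scale, and the correlations are given as a description. KRT8 and KRT18 correlated with each other at 0.996 over 22 groups and 0.986 over 19. Outside the keratins TAGLN2 came first for both, at 0.992 for KRT8 and 0.989 for KRT18, with TUBB4B among the first 3 (0.987 and 0.984). Without Polygalae Radix the first 3 for KRT8 were CCND3 (0.969), MGLL (0.955) and TAGLN2 (0.941).

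The other keratins had different neighbours. KRT7 was close to ACOT7 (0.995) and ALDOA (0.994), KRT19 to CAPN1 (0.992), ALDOA (0.991) and ILK (0.99), and KRT81 to TK1 (0.989), MCM5 (0.985) and TALDO1 (0.984). KRT4 was nearest to CCDC80 (0.986), EFEMP1 (0.973) and COL5A1 (0.972), and KRT80 to FLNA (0.98), IPO4 (0.978) and FASN (0.976). Without Polygalae Radix, CCDC80 (0.976) stayed among the first 3 for KRT4, behind CLDN2 (0.981), and FLNA (0.941) stayed first for KRT80. For KRT7, KRT19 and KRT81 none of the first 3 was shared, and the coefficients of the new ones were 0.934 to 0.939 for KRT7, 0.89 to 0.909 for KRT19 and 0.897 to 0.93 for KRT81. Between keratins, leaving out Polygalae Radix moved the correlation of KRT18 with KRT7 from 0.942 to 0.618, that of KRT18 with KRT19 from 0.942 to 0.601, and that of KRT4 with KRT19 from 0.798 to 0.396.

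Processed copies of keratin genes can draw reads from their parents. The table lists 149 keratin pseudogenes, of which 15 passed the filter. The 51 named after KRT8 held 0.226% to 2.80% of the expected counts of KRT8 and these pseudogenes combined (median 0.293%). The highest value was at the high dose of Polygalae Radix, where KRT8 itself was lowest. Those of KRT18 had 0.0508% to 0.715% by the same measure. In that group KRT87P, a hair keratin pseudogene whose exons overlap KRT7 by 32 bases, fell from 19.8 to 2.67 CPM against vehicle (log2 -2.87, SE 0.47, adjusted p = 1.44e-06 by edgeR), whereas KRT8P12 rose by 0.60 on the log2 scale (SE 0.15, adjusted p = 0.000519 by edgeR). None of the 100-base windows in KRT4, KRT19 and KRT80 transcripts occurred in another gene, and for KRT7 the share was 4.26%, for KRT8 5.51% and for KRT18 8.39%.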

How the data were processed

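RNA from A549 cells was sequenced in 60 libraries. Per the submitters' processing notes, tools included STAR 2.7.3a, RSEM 1.3.3, Trim Galore 0.6.5 and FastQC 0.11.9, and the build was GRCh38. The sources used here give neither the annotation release nor the strand setting. The deposited values are RSEM's expected counts per gene, not normalized, and the authors' table covers 60675 Ensembl genes; 9.95% of its values carried decimals. All 60 columns matched a sample label.

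Expected counts were rounded and scaled by TMM (edgeR 4.0.16, R 4.3.3). Genes were kept by filterByExpr, which left 18396, and fitted by the quasi-likelihood model with 1 coefficient per extract and dose (57 libraries, 22 groups, 35 residual degrees of freedom). The single libraries of Okbyeongpung-san entered CPM values only. Adjusted p is Benjamini-Hochberg over all genes tested, called under 0.05. Symbols came from a gene name table and, for 497 identifiers, from GENCODE 29, whose exon lengths and coordinates were used, and sequences came from the same reference and were aligned with Biopython 1.88.

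The 7 genes and the gene lists were chosen with earlier results of these data known. Named genes are the 7, all tested keratins, from each list and comparison up to 2 genes past the threshold in each direction with the largest change, and the 3 genes nearest each keratin by correlation. One such gene and the sequences compared are not reported here. DSP, JUP and VIM values outside that rule were added after their values were seen, as were CRYAB in Polygalae Radix, the pseudogenes named and EHF where it was not among the largest changes. Alternatives were DESeq2 size factors and the Wald test (DESeq2 1.42.0), no filter, a 2-fold threshold, library class, library subsets, a replicate block and each library left out. Same-numbered libraries did not all deviate together (no comparison with 3 pairs had every correlation over 0.1, although the highest reached 0.421 between doses of Guibi-tang), so numbers were not treated as pairs. Library totals without TMM were added as an alternative after seeing the data.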

Additional observations from a re-analysis of the deposited data

Results flagged for a closer look

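In 4 keratins the change from low to high dose differed between Polygalae Radix and Aucklandiae Radix, extracts of the same library set, by the test of the difference itself (edgeR, adjusted over all genes tested). KRT15 differed by -3.604 on the log2 scale (SE 0.51, adjusted p = 1.38e-07): between the low and the high dose it went from 57 to 10 summed counts in Polygalae Radix and from 55 to 149 in Aucklandiae Radix, with 2 libraries in each group. KRT15 kept this difference in each fit with 1 library left out, with class as a term and by DESeq2's Wald test (adjusted p = 1.2e-07).

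KRT16 differed by -3.704 (SE 1.47, adjusted p = 0.0366), from 17 counts to 1 and from 6 to 7. Its pass of the filter on low counts rests in part on the low dose of Polygalae Radix, so this difference is not independent of the filter. KRT17 differed by -2.301 (SE 0.84, adjusted p = 0.0223), from 55 counts to 3 and from 31 to 11. KRT20 differed by -2.658 (SE 1.05, adjusted p = 0.0358), from 15 counts to 2 and from 12 to 14. None of KRT16, KRT17 and KRT20 passed by DESeq2's Wald test (adjusted p = 0.0612, 0.0606 and 0.0853) or with the class 1 libraries alone (0.109, 0.0557 and 0.0725 by edgeR). Leaving out 1 library at a time, KRT16 passed in 2 of 8 fits, KRT17 in 3 of 8 and KRT20 in 2 of 8. A cause of these differences was not tested.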

How the results depend on the processing

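No called change of the 7 chosen or the 8 tested keratins reversed under any alternative. For the list genes only counts were compared, so their directions under the alternatives were not checked. The counts below are of the 8 tested keratins outside the chosen 7, or of the 57 tested genes in the 4 lists, in the order of main value and alternative. Without the filter on low counts, other keratins went from 2 to 4 in Aucklandiae Radix, 0 to 1 in Saposhnikoviae Radix, 0 to 1 in Guibi-tang and 1 to 2 in Soyo-san against vehicle, and between doses from 0 to 1 in Menthae Herba, Saposhnikoviae Radix and Saengmaek-san and 0 to 2 in Soyo-san. List genes there went from 1 to 3 (Saposhnikoviae Radix) and 5 to 1 (Saengmaek-san) against vehicle, and from 0 to 1 and 0 to 2 between doses. With only the libraries compared in the fit, other keratins went from 2 to 4 (Aucklandiae Radix), 0 to 1 (Guibi-tang) and 1 to 3 (Soyo-san) against vehicle and 0 to 1 between doses of Menthae Herba, and list genes from 1 to 4 (Saposhnikoviae Radix) and 5 to 0 (Saengmaek-san) against vehicle and 8 to 2 (Guibi-tang) and 5 to 2 (Soyo-san) between doses.

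A 2-fold threshold left list genes at 22 of 41 (Polygalae Radix), 2 of 31 (Aucklandiae Radix), 4 of 29 (Menthae Herba), 0 of 1 (Saposhnikoviae Radix), 0 of 5 (Saengmaek-san), 2 of 16 (Guibi-tang) and 0 of 22 (Soyo-san) against vehicle, and at 22 of 43, 5 of 24, 3 of 22, 1 of 8 and 0 of 5 between doses of Polygalae Radix, Aucklandiae Radix, Menthae Herba, Guibi-tang and Soyo-san. It left other keratins at 1 of 2 in Menthae Herba and 0 of 1 in Soyo-san. With library class as a term, list genes went from 1 to 7 (Saposhnikoviae Radix) and 5 to 11 (Saengmaek-san) against vehicle and from 0 to 1, 0 to 1, 8 to 14 and 5 to 9 between doses of Saposhnikoviae Radix, Saengmaek-san, Guibi-tang and Soyo-san. Within class 2 they went from 1 to 4 and 5 to 9 in the first 2 of these against vehicle and from 0 to 1 (Saengmaek-san), 8 to 3 (Guibi-tang) and 5 to 11 (Soyo-san) between doses, and other keratins in Soyo-san went from 1 to 2. Within class 1, list genes between doses of Saposhnikoviae Radix went from 0 to 2. DESeq2's Wald test gave 5 list genes in Saposhnikoviae Radix against vehicle. The 4 keratins whose dose change differed between Polygalae Radix and Aucklandiae Radix became 2 without the filter, 1 within class 1 and 1 by DESeq2's Wald test. The cause of these shifts was not tested.

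With 1 library left out at a time, other keratins ranged from 1 to 2 (Menthae Herba), 0 to 1 (Guibi-tang) and 0 to 1 (Soyo-san) against vehicle, from 1 to 4 between doses of Aucklandiae Radix and 0 to 1 between those of Guibi-tang, and from 1 to 3 for the difference between extracts. List genes ranged from 0 to 6 in Saengmaek-san against vehicle, and from 5 to 7 in Guibi-tang and 0 to 3 in Soyo-san between doses. Where this left a dose with 1 library, that library was assumed to vary like the other groups.

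Library totals without TMM moved the median of all genes from 0.05 to 0.40 in Polygalae Radix and 0.02 to 0.18 in Aucklandiae Radix against vehicle, and from 0.04 to 0.33 between doses of Polygalae Radix. The share of calls that were higher moved against vehicle from 50.53% to 72.41% (Polygalae Radix), 51.7% to 74.98% (Aucklandiae Radix), 49.34% to 71.17% (Menthae Herba), 56.77% to 75.33% (Saposhnikoviae Radix), 51.72% to 68.82% (Saengmaek-san) and 47.19% to 80.29% (Guibi-tang), and between doses, in the same order, from 48.98% to 67.92%, 49.44% to 68.77%, 39.09% to 54.25%, 30.77% to 41.67%, 84.62% to 25% and 32.78% to 58.48%. In Polygalae Radix against vehicle KRT8 was then -2.62 and KRT4 -3.28, and KRT7 in Aucklandiae Radix, not past the threshold in either, was 0.03 in place of -0.13. This scaling was added after seeing the data. List genes went from 5 to 0 (Saengmaek-san) against vehicle and 8 to 5 (Guibi-tang) and 5 to 3 (Soyo-san) between doses, and other keratins from 0 to 1 (Guibi-tang) and 1 to 0 (Soyo-san). With the replicate block, all genes called against vehicle were 11101 in place of 10965 for Polygalae Radix and 6661 in place of 6571 for Aucklandiae Radix, other keratins stayed at 7 and 2, and no count moved by over 1.5 times. The block gives all sets the same effect of a number, so it does not model pairing within a set. The numbers were not treated as pairs. In the comparisons of 3 pairs the lowest correlation was at most 0.0523, while the highest was 0.421 between doses of Guibi-tang and 0.343 between those of Saengmaek-san. In Guibi-tang replicate 3 was the class 2 library at each dose, so number and class go together there. The main fit between its doses leaves this out. Depth limits KRT16, KRT17 and KRT20, with 1 to 3 counts at the high dose of Polygalae Radix.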
